A study of Mus musculus with 10 samples.

Results

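The 44 genes described here carry a cell through mitosis: the cyclin and CDK1 engine that starts it, the kinases, checkpoint, kinetochores and spindle that move the chromosomes, and the central spindle that splits the cell. They were given as a fixed list, which was chosen with earlier results of these data known. Each was represented by the probe set (a group of probes for 1 transcript) with the highest mean over all 10 arrays among those listed for that gene alone. A probe set was found for 44 of the 44, out of 18193 genes measured.

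The arrays measured RNA of mouse bone marrow cells from C57BL/6 animals aged 5 to 6 weeks. The lineage-negative, Sca1-positive cells were cultured with IL-3, IL-6 and SCF and transduced in 2 rounds with MigR1 retrovirus that carried the marker GFP alone (3 arrays), AML1/ETO (3 arrays) or its W692A mutant (4 arrays), and 48 hours after the second round 25000 live cells per sample were sorted as GFP-positive, lineage-negative, Sca1-positive and cKit-positive. AML1/ETO is the leukaemia fusion of the DNA-binding factor AML1 with the corepressor-binding protein ETO, and the study asked, by its title, how the MYND domain of ETO, which binds the corepressors SMRT and N-CoR, contributes to what the fusion does. All 3 groups thus shared the virus, the culture, the sort and the amplification of 50 ng of RNA in 2 rounds, the samples of a group were separate transductions, and the labels do not tell whether each group used 1 or several animals.

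Transcripts of most of these genes are made late in the cell cycle, in G2 and M phase, and are low in resting cells. Their shared programme is switched on through B-MYB, the MuvB complex and FOXM1, and is held down outside that window by the DREAM complex. Blood stem cells are mostly resting in the marrow and divide often once they are cultured with cytokines. In bulk RNA of this kind fewer cells in mitosis and less mitotic RNA per cell cannot be told apart.

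Values are log2 intensities, on which a difference of 1 is a change of 2-fold. A background bound of 2.04 was taken from the brightest value of the bacterial control probe sets. Of the 44 genes 40 lay above it on all 10 arrays. Nek2 did so on 8 arrays, Plk1 on 6, Birc5 on 4 and Cdc25b on 0, and no fold is given for these. A gene was called when its limma p-value, adjusted over all 18193 genes by the Benjamini-Hochberg method, was under 0.05.

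Checks of the labels and of the arrays came out as follows. Runx1, the gene of AML1, was called higher with AML1/ETO (1.90-fold, limma adjusted p = 6.46e-05) and with W692A (2.11-fold, adjusted p = 3.04e-05). Runx1t1, the gene of ETO, lay above the bound on the 3 AML1/ETO arrays and on 0 of the GFP and W692A arrays (group means of 0.65, 2.79 and 0.63 for GFP, AML1/ETO and W692A). Where the Runx1t1 probe set lies relative to the construct was not checked here, so whether its vector-like level goes against the W692A label is not known. Runx1 sets the W692A arrays apart from GFP but not from AML1/ETO (log2 difference 0.15, limma adjusted p = 0.501). That those arrays carry the mutant rests on the label alone. The correlation between arrays was 0.982 to 0.992 within groups and 0.887 to 0.962 between them. Of 11 measured stem and multipotent progenitor markers 10 lay above the bound in each group, and the one below it was Kit, which encodes the sorted marker cKit. The 4 T and NK lymphoid markers lay below the bound in each group.

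With AML1/ETO nearly the whole mitotic set was lower. Of the 44 genes 42 fell, 0 rose and 2 did not pass, Kif22 and Cdc25b, and at an unadjusted limma p under 0.05 the counts were 42 and 0. Over all genes tested 15.8% were called lower and 12.9% higher in this comparison. These and the later shares over all genes include many dim genes. A group mean lay above the bound for 8820 of the 18193 genes and for 43 of the 44. The median log2 difference of the 44 was -0.92, which is 1.89-fold lower, against -0.02 over all genes. The largest difference was -1.69 for Aurkb, and 20 of the 42 that fell were at least 2-fold lower. For 40 genes every AML1/ETO array lay below every GFP array, as did 21.0% of all genes. For Cdc25b every AML1/ETO array lay above, as did 18.1% of all genes.

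With the W692A substitution the set was close to the vector control. Against GFP 6 of the 44 genes fell (Aurkb, Hmmr, Kif11, Kif20a, Anln and Ccna2) and 1 was called higher (Cdc25b, below the bound on every array), while 9.07% of all genes were called lower and 5.45% higher. The median log2 difference from GFP was -0.09, against 0.01 over all genes. Against AML1/ETO 41 genes were higher, 0 were lower (43 and 0 at an unadjusted limma p under 0.05) and 3 did not pass (Cdc25b, Nek2 and Ect2), beside 9.61% of all genes higher and 11.1% lower. The median difference between W692A and AML1/ETO was 0.85 on the log2 scale, against 0.03 over all genes, and 9 genes were at least 2-fold higher.

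The mean over the 44 genes shows how the arrays of a group kept together. It was 6.32, 6.21 and 6.22 on the GFP arrays, 5.31, 5.29 and 5.36 on the AML1/ETO arrays, and 6.19, 6.22, 6.06 and 6.14 on the W692A arrays. The AML1/ETO arrays stood apart from all 7 others, and the ranges of GFP and W692A overlapped. The group means were 6.25 ± 0.0595 (SD, n = 3), 5.32 ± 0.0381 (SD, n = 3) and 6.15 ± 0.0705 (SD, n = 4).

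**Figure D1:**
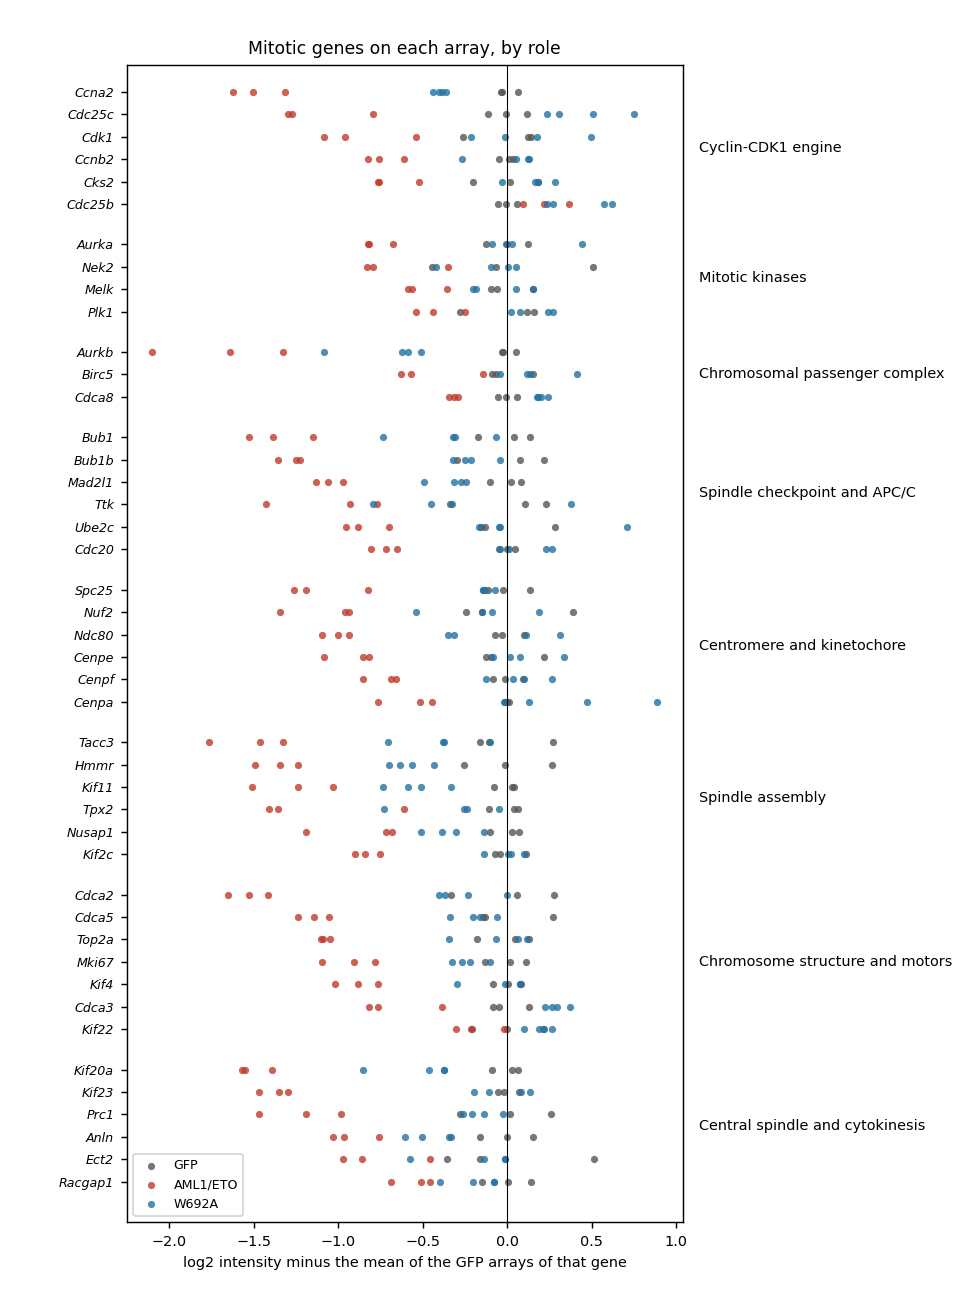
Each point is 1 array; the horizontal axis gives the log2 intensity of a gene minus its mean on the 3 GFP arrays, and the rows are the 44 genes in 8 roles. For 40 genes the 3 red AML1/ETO points lie left of all GFP points, while the 4 blue W692A points mostly lie around or a little left of 0.

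Promoters of these genes are printed because the genes moved together and because the programme is known to act through 2 short elements. The CCAAT box is bound by NF-Y, and the cell cycle genes homology region, TTTGAA or TTCGAA, is the place where the MuvB complex touches DNA. Shown are the 8 genes with the largest falls under AML1/ETO that had an entry in the RefSeq promoter table of build GRCm38.p6, then Kif22 and Cdc25b, the 2 that did not pass. Each sequence holds the 150 bases before the annotated start, 5′ to 3′ on the strand of the gene. Capitals mark the box CCAAT (on the other strand ATTGG) and the region TTTGAA (on the other strand TTCAAA) or TTCGAA, which reads the same on both strands.
Tacc3, chr5:33657978-33658127, plus strand: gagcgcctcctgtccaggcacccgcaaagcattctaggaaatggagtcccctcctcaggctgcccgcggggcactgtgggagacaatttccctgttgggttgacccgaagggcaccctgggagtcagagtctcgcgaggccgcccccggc
Kif23, chr9:61946800-61946949, minus strand: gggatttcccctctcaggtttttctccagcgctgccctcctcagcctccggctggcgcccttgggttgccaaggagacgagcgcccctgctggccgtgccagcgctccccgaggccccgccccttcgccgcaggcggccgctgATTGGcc
Hmmr, chr11:40733438-40733587, minus strand: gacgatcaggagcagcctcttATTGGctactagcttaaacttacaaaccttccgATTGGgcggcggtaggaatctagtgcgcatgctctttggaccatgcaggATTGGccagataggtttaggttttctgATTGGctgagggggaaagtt
Bub1, chr2:127831860-127832009, minus strand: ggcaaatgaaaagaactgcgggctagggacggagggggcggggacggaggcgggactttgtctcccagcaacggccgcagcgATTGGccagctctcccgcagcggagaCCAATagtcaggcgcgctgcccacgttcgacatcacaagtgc
Bub1b, chr2:118598061-118598210, plus strand: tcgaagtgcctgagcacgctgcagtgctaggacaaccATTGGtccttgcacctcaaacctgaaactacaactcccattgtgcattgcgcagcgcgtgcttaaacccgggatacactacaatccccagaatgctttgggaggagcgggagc
Kif11, chr19:37376232-37376381, plus strand: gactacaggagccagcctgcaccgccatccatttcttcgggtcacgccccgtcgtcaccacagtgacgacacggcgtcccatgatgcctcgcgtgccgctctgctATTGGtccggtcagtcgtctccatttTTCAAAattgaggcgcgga
Prc1, chr7:80294301-80294450, plus strand: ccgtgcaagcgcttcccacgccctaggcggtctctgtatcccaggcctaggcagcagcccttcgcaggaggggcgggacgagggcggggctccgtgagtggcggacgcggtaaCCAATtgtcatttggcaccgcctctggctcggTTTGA
Cdca5, chr19:6084947-6085096, plus strand: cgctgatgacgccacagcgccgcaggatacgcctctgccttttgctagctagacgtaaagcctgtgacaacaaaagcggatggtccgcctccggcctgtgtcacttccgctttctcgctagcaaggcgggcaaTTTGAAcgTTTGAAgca
Kif22, chr7:127042421-127042570, minus strand: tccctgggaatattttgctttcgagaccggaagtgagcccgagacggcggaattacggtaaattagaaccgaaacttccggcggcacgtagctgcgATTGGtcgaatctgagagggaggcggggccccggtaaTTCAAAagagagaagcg
Cdc25b, chr2:131186798-131186947, plus strand: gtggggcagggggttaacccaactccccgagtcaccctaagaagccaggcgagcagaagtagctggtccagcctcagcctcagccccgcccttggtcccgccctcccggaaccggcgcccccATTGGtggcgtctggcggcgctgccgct

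Kif11 and Kif22 had both elements in the stretch shown, and Cdca5 had TTTGAA at positions -17 and -9 from the start with no CCAAT. Hmmr had CCAAT boxes at -129, -96, -47 and -20, and a match to TTTGAA or TTCGAA at 9, past the end of the stretch shown. In Prc1 the TTTGAA began at -5 and ran over the start, so its last base is not shown. Kif23, Bub1 and Cdc25b likewise had such a match after the start, at 3, 15 and 8, and Bub1b had one at -188 and one at 41. The Tacc3 stretch held neither element.

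Matches were counted on both strands in the 300 bases from 250 before to 50 after each start, with overlaps between the 2 motifs allowed. Of the 44 genes 38 had a promoter entry, and Aurkb, Cdca2, Ccna2, Tpx2, Kif20a and Cdc25c had none. TTTGAA or TTCGAA was present in 29 of the 38 (76.3%), against 19.4% of all 27025 genes in the promoter table. Within 50 bases of the start it was present in 27 (71.1%), against 5.29% of all genes. CCAAT was present in 28 (73.7%), against 37.9%, and 25 genes (65.8%) held both elements, against 7.70%.

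For comparison, CCAAT occurred in 64.9% of the DNA replication promoters and TTTGAA or TTCGAA in 16.2% of them. Among 111 other mitotic genes with an entry the shares were 58.6% and 45.0%. The sequence bound by AML1, here TGTGGT or TGCGGT, was found in 6 of the 38 promoters (15.8%) and in 22.5% of all promoters. The median log2 difference of AML1/ETO from GFP was -0.86 for the 29 genes with a match to TTTGAA or TTCGAA and -0.86 for the 9 without. These are matches of letters and not measured binding.

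The engine of mitotic entry is the kinase CDK1 with its cyclins, which the CDC25 phosphatases switch on. Of these 6 genes 5 fell with AML1/ETO, with a median log2 difference of -0.80. Ccna2, which encodes cyclin A2, read 8.43, 8.33 and 8.33 with GFP, 6.86, 6.74 and 7.05 with AML1/ETO, and 8.0, 7.98, 7.96 and 7.93 with W692A. The 3 groups did not overlap, and W692A lay between the others but nearer to GFP. Ccna2 was 2.79-fold lower with AML1/ETO (log2 difference -1.48 ± 0.114, SE, adjusted p = 1.56e-07), 1.32-fold lower with W692A than with GFP (-0.40 ± 0.107, adjusted p = 0.021), and 2.12-fold higher with W692A than with AML1/ETO (1.08 ± 0.107, adjusted p = 4.49e-06).

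Cdc25c, whose product activates CDK1 at entry into mitosis, had the largest gap between both constructs. It read 6.23, 6.12 and 6.35 with GFP, 4.96, 5.44 and 4.94 with AML1/ETO, and 6.54, 6.99, 6.74 and 6.47 with W692A. Every W692A array lay above every GFP array. It was 2.18-fold lower with AML1/ETO than with GFP, and 2.98-fold higher with W692A than with AML1/ETO (1.57 ± 0.152, adjusted p = 3.70e-06). The difference of W692A from GFP, 0.45 ± 0.152, did not pass (adjusted p = 0.0618).

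Cdk1 itself read 6.38, 5.98 and 6.36 with GFP, 5.70, 5.15 and 5.28 with AML1/ETO, and 6.73, 6.41, 6.02 and 6.23 with W692A. Its GFP and W692A arrays overlapped, and all AML1/ETO arrays were below both. Ccnb2, which encodes cyclin B2, and Cks2, which encodes a small subunit that helps CDK1 dock on its targets, fell by 0.73 and 0.68 on the log2 scale with AML1/ETO, and W692A differed from GFP by 0.01 and 0.15. Cdc25b, a sister of Cdc25c, lay below the bound on every array and gives no measured level: it read 1.20, 1.15 and 1.27 with GFP, 1.42, 1.30 and 1.57 with AML1/ETO, and 1.78, 1.83, 1.44 and 1.48 with W692A. The test did not pass between AML1/ETO and GFP (adjusted p = 0.262) and passed between W692A and GFP (adjusted p = 0.034), and no size is read from it.

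The 4 mitotic kinases PLK1, Aurora A, NEK2 and MELK, of which all but MELK are known to work at the centrosomes, fell with a median of -0.58. Aurka read 4.64, 4.51 and 4.76 with GFP, 3.96, 3.82 and 3.81 with AML1/ETO, and 4.55, 5.08, 4.63 and 4.67 with W692A, so that AML1/ETO lay below all other arrays. It was 1.71-fold lower with AML1/ETO. Plk1 was near the bound, with 2.30, 1.87 and 2.26 with GFP, 1.70, 1.60 and 1.89 with AML1/ETO, and 2.22, 2.38, 2.16 and 2.42 with W692A. The GFP arrays overlapped both other groups, which did not overlap each other. Nek2 was also dim and spread widely with GFP, from 2.06 to 3.01, against 1.67 to 2.15 with AML1/ETO. Between W692A and AML1/ETO Nek2 did not pass (adjusted p = 0.0668).

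The chromosomal passenger complex corrects wrong attachments of chromosomes to the spindle and later guides cytokinesis. Its kinase subunit, Aurora B, showed the largest fall of the 44 genes. Aurkb read 5.19, 5.28 and 5.19 with GFP, 3.12, 3.58 and 3.89 with AML1/ETO, and 4.64, 4.60, 4.14 and 4.71 with W692A. The 3 groups did not overlap, and the AML1/ETO arrays spread more than the GFP arrays. Aurkb was 3.23-fold lower with AML1/ETO (-1.69 ± 0.184, adjusted p = 4.57e-06) and 1.63-fold lower with W692A than with GFP (-0.70 ± 0.172, adjusted p = 0.0123), and W692A was above AML1/ETO by 0.99 (adjusted p = 0.000678).

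The differences of the other subunits in the set were smaller on the probe sets used. Incenp, a subunit of the complex outside the set, fell by 1.02 with AML1/ETO. Cdca8, which encodes borealin, read 10.04, 10.11 and 10.00 with GFP, 9.76, 9.71 and 9.74 with AML1/ETO, and 10.25, 10.23, 10.23 and 10.29 with W692A. It was bright and tightly grouped, with no overlap among the groups, and its fall of 0.32 with AML1/ETO was the smallest that passed. Birc5, which encodes survivin, lay near the bound at 1.89, 2.14 and 1.92 with GFP, 1.41, 1.84 and 1.36 with AML1/ETO, and 2.40, 2.12, 2.10 and 1.94 with W692A. The calls of Cdca8, Birc5, Plk1, Nek2, Ect2 and Cenpa were each lost when some single GFP or AML1/ETO array was left out.

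The spindle checkpoint delays the separation of chromosomes until all are attached, by holding back the anaphase-promoting complex. All 6 genes of this role fell with AML1/ETO, with a median of -1.05. Bub1, a checkpoint kinase, read 6.12, 6.22 and 5.91 with GFP, 4.93, 4.55 and 4.69 with AML1/ETO, and 6.02, 5.76, 5.35 and 5.77 with W692A. It was 2.56-fold lower with AML1/ETO (-1.36 ± 0.163, adjusted p = 1.25e-05). W692A overlapped GFP in 1 array and lay above AML1/ETO by 0.998 ± 0.153 (adjusted p = 0.000232).

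Bub1b, which encodes the checkpoint protein BUBR1, read 6.63, 6.12 and 6.49 with GFP, 5.16, 5.19 and 5.06 with AML1/ETO, and 6.09, 6.16, 6.37 and 6.20 with W692A. It was 2.42-fold lower with AML1/ETO (-1.28 ± 0.138, adjusted p = 4.43e-06) and higher by 1.07 ± 0.129 with W692A than with AML1/ETO (adjusted p = 3.04e-05). Mad2l1, which encodes MAD2, the inhibitor that captures CDC20, fell by 1.06 with AML1/ETO. Its W692A arrays, 7.5 to 7.75, lay below the GFP arrays, 7.89 to 8.08, but the difference of -0.33 did not pass. Ttk, the kinase that starts the checkpoint signal, spread widely among the W692A arrays, from 3.45 to 4.63, which reached into the AML1/ETO range of 2.82 to 3.48.

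Cdc20 and Ube2c act on the other side of the checkpoint, as the activator of the anaphase-promoting complex and as an enzyme that supplies it with ubiquitin. Cdc20 read 8.24, 8.20 and 8.29 with GFP, 7.44, 7.59 and 7.53 with AML1/ETO, and 8.20, 8.26, 8.51 and 8.47 with W692A. The AML1/ETO arrays were 1.65-fold lower and the others overlapped. Ube2c fell by 0.85 with AML1/ETO, and of its W692A arrays replicate 2 stood high at 7.20, against 6.33 to 6.45 on the other 3.

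Kinetochores are built on the centromere and bind the spindle through the NDC80 complex. All 6 genes of this role fell with AML1/ETO (median -0.96), and against GFP 0 of 6 passed with W692A (median 0.01). The 3 subunits of the NDC80 complex in the set all fell, Spc25 by 1.09, Nuf2 by 1.08 and Ndc80 by 1.01. Ndc80 read 6.01, 5.84 and 5.88 with GFP, 4.97, 4.81 and 4.90 with AML1/ETO, and 6.22, 6.02, 5.56 and 5.59 with W692A. The W692A arrays spread to both sides of the GFP arrays.

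Cenpe, the kinesin that carries chromosomes to the spindle equator, read 6.56, 6.22 and 6.24 with GFP, 5.26, 5.53 and 5.49 with AML1/ETO, and 6.26, 6.68, 6.36 and 6.42 with W692A. It was 1.89-fold lower with AML1/ETO, and W692A exceeded AML1/ETO by 1.01 ± 0.132 (adjusted p = 6.27e-05). Cenpf, a large protein of the outer kinetochore, fell by 0.73. Cenpa, the histone variant that marks the centromere, fell by 0.57, the least of this role. Its W692A arrays read 6.90, 6.48, 5.99 and 6.14 beside 6.01, 6.00 and 6.02 with GFP, so that 3 of them stood above the GFP level and 1 was just under it.

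Genes of spindle assembly had the deepest median fall of the 8 roles, -1.19 with AML1/ETO, and the lowest median against GFP with W692A, -0.36. Tacc3, which stabilises the microtubule bundles that pull on chromosomes, read 6.72, 6.29 and 6.35 with GFP, 5.13, 4.69 and 4.99 with AML1/ETO, and 6.35, 6.08, 6.08 and 5.75 with W692A. It was 2.86-fold lower with AML1/ETO (-1.52 ± 0.169, adjusted p = 5.63e-06). W692A was 2.19-fold above AML1/ETO (1.13 ± 0.158, adjusted p = 0.000105), and its difference from GFP, -0.39, did not pass.

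Hmmr, a microtubule-binding protein of the spindle poles, and Kif11, the kinesin that pushes the poles apart, were lower with both constructs. Hmmr read 8.22, 7.70 and 7.94 with GFP, 6.72, 6.46 and 6.61 with AML1/ETO, and 7.39, 7.52, 7.32 and 7.26 with W692A. It was 2.56-fold lower with AML1/ETO (-1.36 ± 0.141, adjusted p = 2.88e-06) and 1.5-fold lower with W692A (-0.58 ± 0.132, adjusted p = 0.00743). In both genes the 3 groups did not overlap.

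Kif11 read 5.91, 5.79 and 5.89 with GFP, 4.62, 4.35 and 4.83 with AML1/ETO, and 5.35, 5.53, 5.12 and 5.27 with W692A. It was 2.40-fold lower with AML1/ETO (-1.26 ± 0.141, adjusted p = 6.01e-06) and 1.46-fold lower with W692A (-0.54 ± 0.132, adjusted p = 0.0117). Tpx2, which activates Aurora A on the spindle, fell by 1.12, with AML1/ETO replicate 3 at 5.04 against 4.24 and 4.29 on the other 2 arrays. Nusap1, which bundles microtubules near chromosomes, fell by 0.86. Kif2c, a kinesin that takes microtubules apart, fell by 0.83 and read 7.04 to 7.28 with W692A against 7.11 to 7.30 with GFP.

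In the role of chromosome structure and motors 6 of 7 genes fell with AML1/ETO (median -0.93) and 0 passed with W692A against GFP. Cdca2, a subunit that brings a phosphatase to chromosomes, read 6.81, 6.20 and 6.59 with GFP, 5.12, 4.88 and 5.01 with AML1/ETO, and 6.13, 6.54, 6.30 and 6.17 with W692A. It was 2.90-fold lower with AML1/ETO (-1.53 ± 0.158, adjusted p = 2.73e-06) and 2.43-fold higher with W692A than with AML1/ETO (1.28 ± 0.148, adjusted p = 1.97e-05). W692A and GFP overlapped.

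Mki67 encodes Ki-67, the protein used to stain dividing cells, and Top2a the enzyme that untangles sister chromosomes. Mki67 read 10.20, 10.11 and 9.96 with GFP, 9.30, 9.18 and 8.99 with AML1/ETO, and 9.99, 9.87, 9.76 and 9.82 with W692A. Top2a read 9.35, 9.04 and 9.27 with GFP, 8.17, 8.13 and 8.12 with AML1/ETO, and 9.28, 9.34, 8.88 and 9.15 with W692A. In both, AML1/ETO stood below all other arrays and the other groups overlapped: Mki67 was 1.90-fold and Top2a 2.11-fold lower. W692A exceeded AML1/ETO for Top2a by 1.02 ± 0.128 (adjusted p = 4.16e-05). Cdca5, which encodes sororin, the guardian of sister chromatid cohesion, fell by 1.15, and the chromosome-bound kinesin Kif4 by 0.89.

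Kif22, a kinesin that binds chromosome arms, was the only gene above the bound on all 10 arrays that did not pass between AML1/ETO and GFP. It read 7.36, 7.78 and 7.57 with GFP, 7.27, 7.55 and 7.36 with AML1/ETO, and 7.68, 7.84, 7.76 and 7.79 with W692A. GFP and AML1/ETO overlapped (-0.18 ± 0.130, adjusted p = 0.396). Of 2 other, dimmer probe sets of Kif22 one fell by 0.69 (adjusted p = 0.00743), and the other, at -0.36, did not pass (adjusted p = 0.282). Cdca3, which helps to degrade an inhibitor of mitotic entry, fell by 0.65, while its W692A arrays, 7.47 to 7.62, lay above the GFP arrays, 7.16 to 7.38, with a difference of 0.29 that did not pass.

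Cytokinesis starts at the central spindle, where PRC1 bundles microtubules and the motors KIF20A and KIF23 carry the signals that place the cleavage furrow. All 6 genes fell with AML1/ETO, with a median of -1.07. Kif23 read 6.16, 6.07 and 6.03 with GFP, 4.79, 4.74 and 4.62 with AML1/ETO, and 6.22, 5.98, 6.17 and 5.89 with W692A. It was 2.59-fold lower with AML1/ETO (-1.37 ± 0.122, adjusted p = 5.98e-07) and higher by 1.35 ± 0.114 with W692A than with AML1/ETO (adjusted p = 9.26e-07). W692A and GFP overlapped, with a difference of -0.02 and a 95% interval from -0.26 to 0.22.

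Kif20a read 5.40, 5.25 and 5.37 with GFP, 3.77, 3.95 and 3.79 with AML1/ETO, and 4.48, 4.97, 4.88 and 4.96 with W692A. Unlike Kif23 it had 3 separate groups. It was 2.84-fold lower with AML1/ETO (-1.50 ± 0.138, adjusted p = 8.60e-07) and 1.43-fold lower with W692A than with GFP (-0.52 ± 0.129, adjusted p = 0.0137). Prc1 read 7.54, 7.00 and 7.29 with GFP, 6.29, 5.81 and 6.09 with AML1/ETO, and 7.25, 7.07, 7.14 and 7.01 with W692A. It was 2.32-fold lower with AML1/ETO, and W692A was higher than AML1/ETO by 1.06 ± 0.145 (adjusted p = 9.22e-05).

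Anln encodes anillin, the scaffold of the contractile ring, and read 7.08, 6.92 and 6.76 with GFP, 5.89, 5.96 and 6.16 with AML1/ETO, and 6.42, 6.59, 6.32 and 6.58 with W692A. The groups did not overlap, and W692A lay midway between the others. It was 1.89-fold lower with AML1/ETO and 1.36-fold lower with W692A than with GFP (-0.45 ± 0.121, adjusted p = 0.0218). Ect2, the exchange factor that switches on RhoA at the furrow, fell by 0.76, with 1 GFP array at 5.28 and the others at 4.60 and 4.4. Racgap1, the partner of KIF23 in the centralspindlin complex, fell by 0.55.

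**Figure D2:**
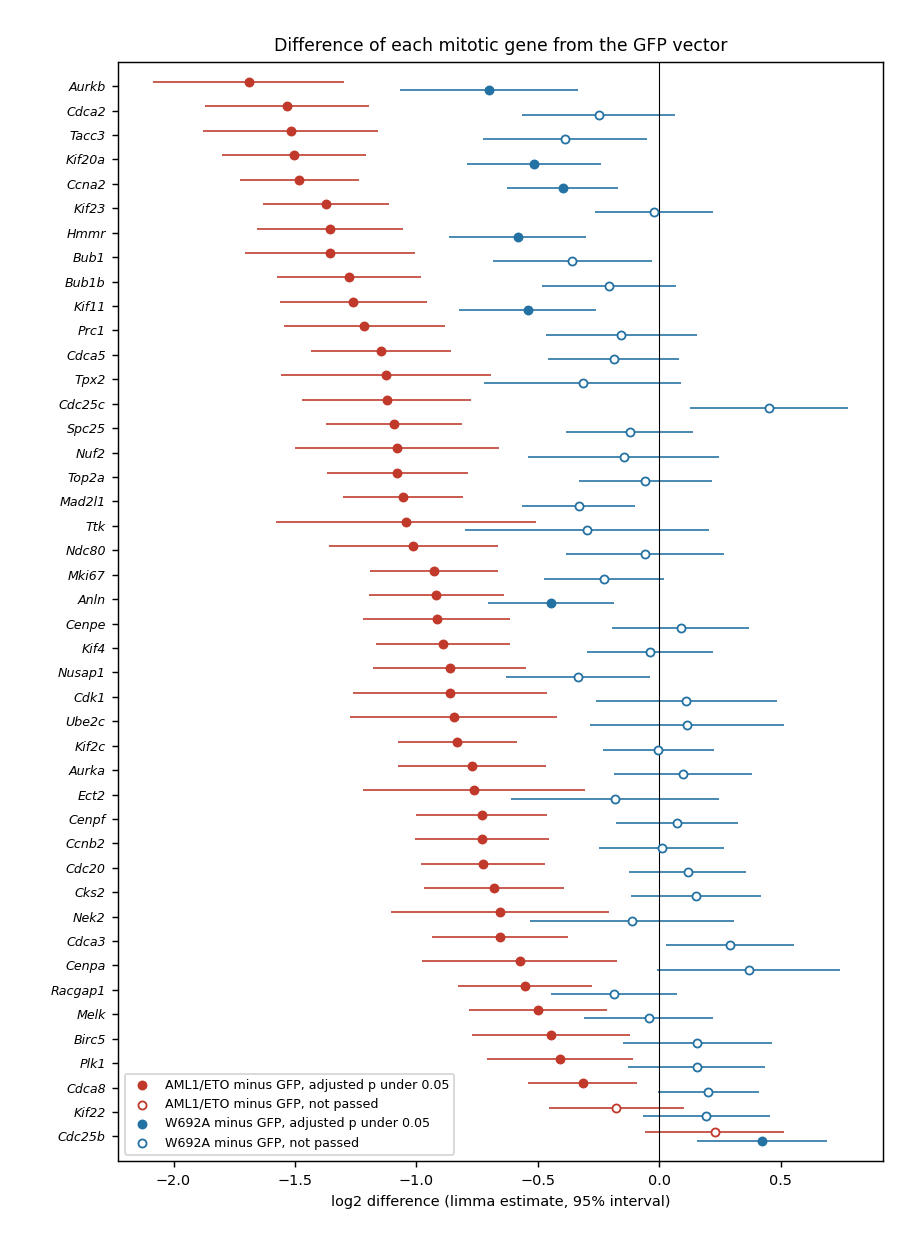
Points give the limma log2 difference from GFP for each of the 44 genes with its 95% interval, for AML1/ETO in red and W692A in blue; filled points passed at an adjusted p under 0.05. The 42 filled red points all lie left of 0, and 37 of the blue points are open.

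The position of W692A between both other groups varied from gene to gene. Its mean lay between a higher GFP mean and a lower AML1/ETO mean for 28 of the 44 genes, as for 24.9% of all genes, above the GFP mean for 16, and below the AML1/ETO mean for 0. Against GFP every W692A array was lower for 8 genes, the 6 that fell with Mad2l1 and Nusap1, and every W692A array was higher for 4, Cdc25b, Cdc25c, Cdca8 and Cdca3. Over all genes these shares were 12.5% and 9.85%. Against AML1/ETO every W692A array was higher for 39 genes, against 13.7% of all genes.

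The 37 genes that did not pass between W692A and GFP were not thereby shown to be equal in both. Their 95% intervals reached from -0.80 at the lowest to 0.78 at the highest on the log2 scale, so that for each of the 37 a fall of 2-fold or more lay outside the interval. For all 37 the lower end of the interval was also above the difference that AML1/ETO had from GFP in the same gene. That difference has an error of its own, so this is no test between the constructs. Nek2 and Ect2, which are among the 37, did not pass between W692A and AML1/ETO. The 6 genes that fell with W692A fell by 0.40 to 0.70 on the log2 scale.

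Not all of those 6 calls held when single arrays were left out or a covariate was added. Without GFP replicate 1 only Aurkb still passed, and without GFP replicate 2 4 of the 6 passed. With the Gapdh control described next as a covariate 0 of the 6 passed, with differences of -0.15 for Aurkb, -0.59 for Hmmr, -0.20 for Kif11, -0.53 for Kif20a, -0.21 for Anln and -0.21 for Ccna2. The call of Cdc25b was lost without any 1 of the 3 GFP arrays, and without W692A replicate 1 or replicate 2.

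The Gapdh control compares probe sets at both ends of 1 transcript and grows when the RNA copies are short. The 3′ minus 5′ difference was 4.83, 4.97 and 4.99 on the GFP arrays, 4.08, 4.01 and 5.04 on the AML1/ETO arrays, and 3.94, 4.12, 3.81 and 4.17 on the W692A arrays. It was thus lower on all W692A arrays than on all GFP arrays, so between these groups the construct and this control cannot be told apart. AML1/ETO replicate 3 had a value above all GFP arrays, and its mean over the 44 genes, 5.36, was close to 5.31 and 5.29 on the other AML1/ETO arrays. With this control in the fit 36 of the 44 genes fell with AML1/ETO and 39 were higher with W692A than with AML1/ETO. The shares of all genes called in that fit are not given here. The falls of Cdca8, Cenpa, Ect2, Nek2, Plk1 and Ttk did not pass in that fit. The 18S RNA controls read 7.74 to 8.13 with GFP, 8.18 to 8.65 with AML1/ETO and 8.56 to 9.0 with W692A, and their part in the results was not tested.

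**Figure D3:**
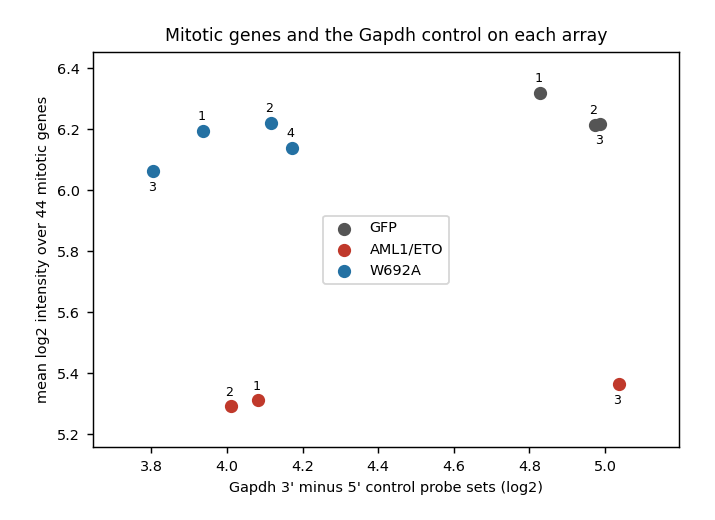
The vertical axis gives the mean log2 intensity over the 44 genes on each array and the horizontal axis the Gapdh 3′ minus 5′ difference, with replicate numbers beside the points. AML1/ETO arrays lie at 5.29 to 5.36 on the vertical axis, below all GFP and W692A arrays. Among the AML1/ETO arrays only replicate 3 has a high Gapdh value, 5.04.

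Other probe sets of the same genes give a second reading. There were 52 of them for 30 of the genes, of which 23 fell with AML1/ETO, 0 rose and 29 did not pass, while of all 34945 probe sets 12.0% were called lower and 10.5% higher. Between W692A and AML1/ETO 22 of the 52 were higher and 0 lower, beside 7.25% and 8.54% of all probe sets. Between W692A and GFP 4 were lower and 4 higher, beside 6.45% and 4.19% of all probe sets. The outcome of the AML1/ETO comparison differed with brightness: of 17 that lay above the bound on all arrays 14 fell, with a median of -0.95, and of 21 that lay below the bound on all arrays 0 passed.

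The other probe sets of 1 gene could differ. The second reading was -1.50 for Ccna2 and -1.41 for Cdca5. Hmmr, with -1.36 on the probe set used, had 4 others at -1.47, -1.42, -0.66 and -0.07, of which the last did not pass. Kif11 had others at -1.35 and -0.37 and Bub1b at -1.28 and -0.33, the second of each not passed. Smaller falls than on the probe set used were read, among others, for Bub1 (-0.61 beside -1.36) and on one probe set of Tacc3 (-0.66 beside -1.52). The same held on one probe set each of Aurkb (-1.22 beside -1.69), Cdca2 (-0.95 beside -1.53) and Cdc25c (-0.65 beside -1.12). Racgap1 fell further on 1 other probe set, by 1.22 on the log2 scale, and did not pass on another below the bound (-0.05). Cdca8 fell further on both others, by 0.99 and 0.82. The 3 bright ones that did not pass belonged to Cenpe (-0.16), Cdc20 (-0.37) and Tacc3 (-0.11). The 4 probe sets higher with W692A than with GFP belonged to genes whose probe set used did not pass: Cdc25c (0.50, adjusted p = 0.0108), Cdca8 (0.43, adjusted p = 0.0222), Cenpf (adjusted p = 0.00337) and Kif2c (adjusted p = 0.0483), the last 2 below the bound on all or nearly all arrays. Of the 4 lower ones 2 belonged to Hmmr, 1 to Aurkb and 1 to Nek2 (-0.55, adjusted p = 0.036), whose probe set used did not pass.

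**Figure D4:**
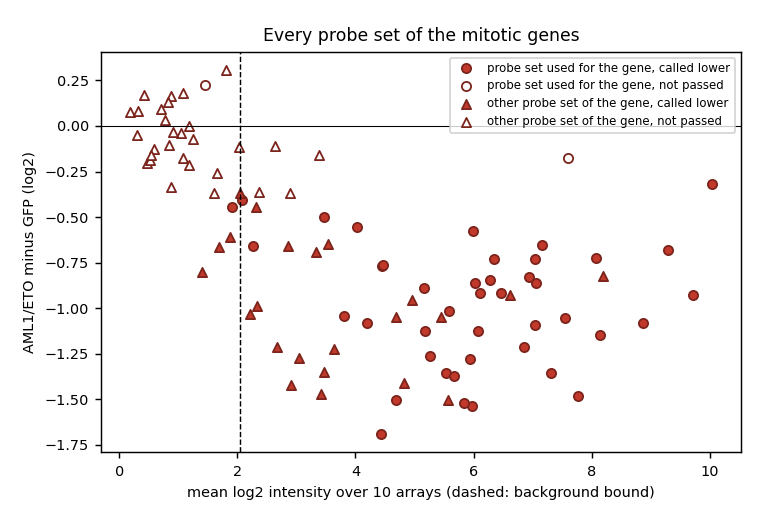
Each point is 1 probe set of the 44 genes, with its mean log2 intensity over 10 arrays on the horizontal axis and the log2 difference of AML1/ETO from GFP on the vertical axis; the dashed line is the background bound of 2.04. Circles are the probe sets used for the genes and triangles the 52 others, and most of the open (not passed) triangles lie at or left of the bound.

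A longer list of mitotic genes outside the set was looked at beside it. Of 135 listed 131 were measured, of which 75 fell, 4 rose and 52 did not pass with AML1/ETO, with a median of -0.57, beside 15.8% lower and 12.9% higher of all genes. With W692A against GFP 21 fell and 6 rose, beside 9.07% and 5.45% of all genes, and against AML1/ETO 66 were higher and 6 lower, beside 9.61% and 11.1%. Of other centromere, kinetochore and checkpoint genes 24 of 34 fell with AML1/ETO and of other spindle genes and motors 21 of 29. The counts were 9 of 18 for condensin and cohesin, 7 of 17 for the anaphase-promoting complex with separase, 6 of 13 for mitotic entry, 4 of 9 for centriole duplication and 4 of 11 for other genes of cytokinesis.

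Among the deepest falls in their own lists were Psrc1, a spindle protein (-1.68), Cenpw, a subunit of the inner kinetochore (-1.48), Spag5, the spindle protein astrin (-1.44), Zwilch, part of a checkpoint complex of the kinetochore (-1.43), and Cep55, which acts at the last cut between daughter cells (-1.39). Ncapg, a condensin subunit, fell by 1.27, Fbxo5, the inhibitor EMI1 of the anaphase-promoting complex, by 1.07, and Espl1, which encodes separase, by 1.01. Plk4, the kinase that starts centriole duplication, fell with both constructs, by 0.97 with AML1/ETO and by 0.80 with W692A (adjusted p = 0.00618), and both constructs differed by 0.17, which did not pass. The 4 that rose with AML1/ETO were Cenpt, an inner kinetochore gene (1.46), Nipbl, which loads cohesin (0.80), Pttg1, which encodes securin, the inhibitor of separase (0.76), and Anapc2, a core subunit of the anaphase-promoting complex (0.67). Against AML1/ETO the W692A arrays were lower for Cenpt, Pttg1 and Anapc2.

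DNA replication genes, which act in S phase, were also lower with AML1/ETO. Of 44 measured 42 fell with AML1/ETO and 0 rose, with a median of -1.02, and 40 were higher with W692A than with AML1/ETO. Over all genes 15.8% were called lower and 12.9% higher with AML1/ETO, and 9.61% higher with W692A than with AML1/ETO. Against GFP 8 of the 44 replication genes fell with W692A, beside 9.07% of all genes. Orc1, a subunit of the origin recognition complex, fell most, by 1.78 with AML1/ETO. Of 8 G1 cyclins and kinases 3 fell with AML1/ETO, among them Ccnd1, which encodes cyclin D1, by 1.91 and Cdk4 by 0.75. Ccnd1 also fell with W692A, by 1.43 on the log2 scale.

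The CDK inhibitors, which hold back the cell cycle, had no common direction. Of 8 measured 2 fell with AML1/ETO, Cdkn1c (p57) and Cdkn3, the latter by 0.38, and 2 were called higher, Cdkn1b (p27) and Cdkn2b (p15), which both lay below the bound on all arrays. These counts stand beside 15.8% of all genes lower and 12.9% higher. Cdkn1c was also called lower with W692A. It lay above the bound with GFP and below it on all AML1/ETO and W692A arrays, so no size is given. Cdkn3 was higher with W692A than with GFP by 0.56.

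**Figure D5:**
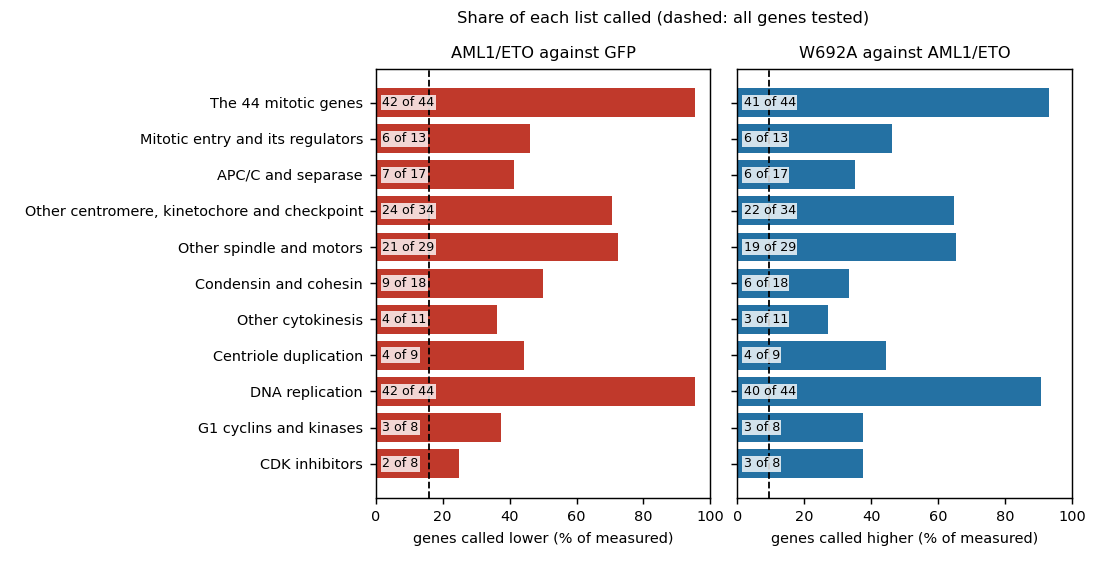
Bars give the percent of measured genes of each list that were called lower with AML1/ETO against GFP (left) and higher with W692A against AML1/ETO (right), with the counts written on the bars. The dashed lines mark the shares over all genes tested, 15.8% and 9.61%; the 44 mitotic genes and the DNA replication genes reach the furthest in both panels.

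Markers of blood cell types also differed between the groups. The summed intensity of 11 stem and multipotent progenitor markers ran from 284 to 318 on GFP arrays, from 1076 to 1187 with AML1/ETO and from 635 to 763 with W692A. With AML1/ETO 9 of the 11 were called higher and 1, Flt3, lower, while over all genes 12.9% were called higher and 15.8% lower. The sum of 6 mast cell, basophil and eosinophil markers ran from 426 to 598, from 1433 to 2590 and from 641 to 764, but its members went both ways: with AML1/ETO 2 rose, Hdc by 4.05 and Cpa3 by 3.10, 2 fell, Epx by 3.76 and Prg2 by 2.12, and 2 did not pass. The sum of 6 erythroid markers ran from 158 to 225, from 63.8 to 104 and from 96 to 132, and 3 of the 6 were called lower with AML1/ETO. In their sums over the stem cell and mast cell lists the W692A arrays lay between the other groups, and in the erythroid list they overlapped AML1/ETO. Among the erythroid markers Epor, Hba-a1 and Alas2 lay below the bound in all 3 groups. For 9 neutrophil markers, of which 8 lay above the bound in each group, the sum ran from 673 to 925 with GFP, from 439 to 707 with AML1/ETO and from 329 to 561 with W692A, and with AML1/ETO 5 were called lower and 2 higher. For 7 monocyte and macrophage markers, 5 of them above the bound in each group, it ran from 280 to 367, from 832 to 1116 and from 649 to 739, with 4 called higher and 0 lower with AML1/ETO. The 5 megakaryocyte and platelet markers gave sums of 231 to 340, 924 to 965 and 276 to 416, but with AML1/ETO 3 of the 5 were called lower, Vwf, Itga2b and Gp9, and 2 higher, Ppbp by 2.24 and Pf4 by 1.86. Gp9 lay below the bound in all 3 groups, and Vwf did so with AML1/ETO and W692A. Of 5 B lymphoid markers 1 lay above the bound in each group. The part of cell composition in the mitotic differences was not tested.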

How the data were processed

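The study comprised 10 Affymetrix arrays, 1 per sample, grouped by the sample labels. The deposited values are log2 intensities that the authors made with RMA, per the submitters' processing notes, which give no version. The base was not stated, and base 2 was used because a natural logarithm would put the highest value, 12.77, at 350219, beyond the 65535 of a 16-bit scanner. RMA sets the arrays to 1 distribution, so a change of total RNA does not show. Precision is limited by the number of arrays.

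Of 45101 probe sets 64 were controls, 9160 had no listed gene and 932 had several. Symbols were updated by gene identifier to GRCm38.p6, and 18193 genes were tested with limma 3.58.1 in R 4.3.3 (lmFit and eBayes, 1 fit of 3 groups, 7 residual and 7.53 prior degrees of freedom). Intervals are at 95% and not adjusted. P-values set the difference between groups against the spread between these samples, which were separate transductions. They need not cover the spread between animals. The fit was tested on simulated arrays with known changes and independent noise, which checks the code and not the RNA quality of the real arrays.

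The members, roles and lists were chosen with earlier results of these data known. Standard errors and adjusted p-values are given for the 10 called genes with the largest differences in a comparison, and for members that did not pass with AML1/ETO, passed with W692A against GFP, or moved against most members. Of other lists the 2 called genes per direction with the largest differences could be named, and Incenp was named as a subunit of the passenger complex. Other probe sets of single genes were named after their values were seen. Alternatives were other filters, probe sets, scalings, variance priors, covariates, the replicate block, a 1.5-fold minimum and leaving out each array.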

Additional observations from a re-analysis of the deposited data

Results flagged for a closer look

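Ube2c stood apart on 1 of the 4 W692A arrays. Replicate 2 read 7.20 on the log2 scale, and the other 3 lay between 6.33 and 6.45, so that the gap to the nearest of them was 0.854 of the range, above Dixon's 95% critical value for 4 samples. Chance gives such a value in about 1 of 20 groups, and 44 genes were looked at.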

How the results depend on the processing

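Between AML1/ETO and GFP the count of genes that fell, 42, was 36 to 42 in all alternatives but 1, and between W692A and AML1/ETO the count that were higher, 41, was 34 to 43 in all but the same 1. That one took each gene by its dimmest probe set: 22 genes fell with AML1/ETO, 2 fell and 3 rose with W692A against GFP, and 23 were higher with W692A than with AML1/ETO. There the difference of AML1/ETO from GFP was 0.077 for Cdca3, 0.17 for Cenpa, 0.083 for Kif23, 0.16 for Kif2c, 0.034 for Top2a and 0.094 for Ttk. That of W692A from AML1/ETO was -0.023 for Anln, -0.035 for Cdca2, -0.10 for Cdca3, -0.14 for Cenpa and -0.20 for Tacc3, and that of W692A from GFP 0.021 for Hmmr, 0.58 for Kif11 and 0.45 for Kif2c (limma adjusted p = 0.0483). Of these sign changes only the last passed. Many of the dimmest probe sets lay at or below the background bound, which limits what they can show. For the alternatives other than the replicate block no calls over all genes are given beside the counts.

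The small counts between W692A and GFP moved more. With a 1.5-fold minimum 1 fell and 0 rose, and with the Gapdh covariate 0 fell and 0 rose. The count that rose was 2 without the 40% dimmest genes, with the average over probe sets and with further quantile normalization, and 3 with the spike-in covariate; the cause was not tested. Leaving out each array in turn gave 37 to 42 lower with AML1/ETO, 36 to 42 higher with W692A than with AML1/ETO, and, between W692A and GFP, 1 to 6 lower and 0 to 2 higher. Between W692A and AML1/ETO it cost the call of Anln, Kif22, Melk, Nusap1, Racgap1 or Ttk in some case. Cdc25c passed as higher with W692A than with GFP under both filters on dim genes, both other choices of probe set, further quantile normalization, the block and the spike-in covariate (0.45 to 0.55 on the log2 scale). The counts of 0 in the opposite directions stayed at 0 in all alternatives.

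Replicate numbers are shared by the labels of the 3 groups. Arrays of like number correlated from -0.119 to 0.443 and those of unlike number from -0.383 to 0.305. These ranges overlapped, and arrays of like number were not taken as pairs. Whether like numbers share a batch is not known. With the replicate block 40 genes fell with AML1/ETO, 5 fell and 2 rose with W692A against GFP, and 38 were higher with W692A than with AML1/ETO. Over all 18193 genes the calls in these comparisons, both directions together, were 5272, 2344 and 3509 with the block. Without the block they were 5207, 2642 and 3765.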
